A study of Rattus rattus with 24 samples.

Results

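Oligodendrocyte precursor cells (OPCs) exposed for 96 hours to T3, the active thyroid hormone, together with quetiapine, an antipsychotic drug, were compared with OPCs in vehicle control, which received neither agent. The comparison used 6 of the 24 arrays of the series: the 3 labelled T3 plus quetiapine at 4 days and the 3 labelled control at 4 days, paired by their replicate number, over all 31042 probe sets that are not array controls. OPCs came from the cortices of rat pups, were selected with A2B5 microbeads and were expanded in medium with PDGF at 20 ng/ml for 4 days. They were then given medium with T3 at 45 nM and quetiapine at 1 µM, or medium with vehicle, and it was renewed on the second day. The 6 arrays of T3 alone and quetiapine alone at 96 hours entered the same fit, so they share in each standard error and p-value of the 96-hour comparisons, and the 12 arrays of 48 hours served the comparison of times. All groups shared the same base medium, whose B27 supplement holds a small amount of T3, so the control was not free of thyroid hormone. The deposited design describes 3 biological replicates that each gave every condition at both times. Whether pups were pooled within a replicate was not stated.

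OPCs are the proliferating cells of the brain that leave the cell cycle and turn into oligodendrocytes, which wrap axons in myelin, a membrane rich in cholesterol, galactolipids and a small set of abundant proteins. Thyroid hormone enters the cell through membrane transporters and binds nuclear receptors that sit on the DNA of their target genes, and it has long been used to mature these cells in culture. Cholesterol is made from acetyl-CoA by a chain of enzymes whose genes are switched on together by the SREBP transcription factors when membranes hold little sterol, while LXR receptors switch on the genes that carry cholesterol out of the cell.

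Values are log2 RMA signals, and a change is the mean of T3 plus quetiapine less the mean of control on that scale, ± its standard error (SE), with 3 arrays in each group. A probe set was called when its adjusted p-value was below 0.05 and its fold change above 1.5, and "rose" and "fell" are used of called changes. The combination raised 2339 probe sets (7.53% of those tested) and lowered 2970 (9.57%), which makes 17.1% called in either direction. Among 14217 genes, each read by the probe set of highest mean, 1213 rose (8.53%) and 1795 fell (12.6%), while the median change over these genes was -0.01. Large changes lay mainly on the side of the rises: 309 probe sets rose and 97 fell by more than 4-fold, and 93 rose and 8 fell by more than 8-fold. In 4883 of the 5309 called probe sets the 3 treated values did not overlap the 3 control values, as they did not in 40.1% of all probe sets tested.

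**Figure D1:**
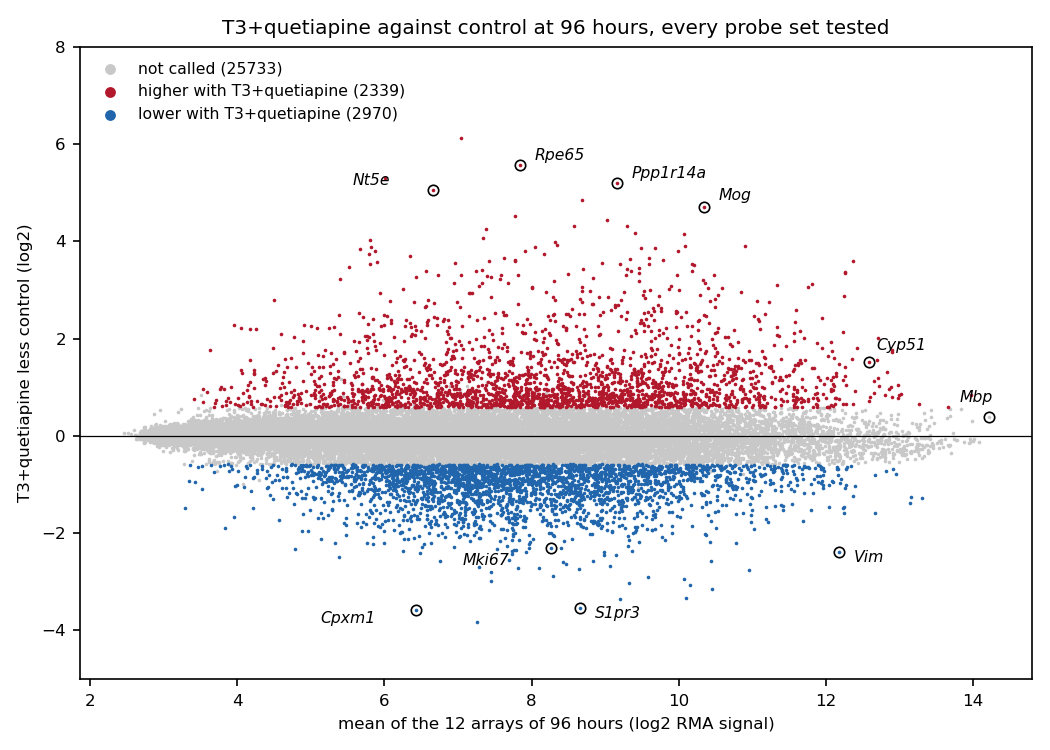
Log2 change (T3 plus quetiapine less control at 96 hours, y axis) of every probe set against its mean signal over the 12 arrays of 96 hours (x axis), with probe sets called higher in red and lower in blue. The 2339 rises reach higher values than the 2970 falls, and the main Mbp probe set lies at the upper end of the signal scale, below the 1.5-fold limit.

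The cultures were checked against the markers of their label. Olig1, Olig2 and Sox10, transcription factors that mark the whole oligodendrocyte lineage, were present in both groups and none was called: Olig1 read 13.29, 13.07 and 13.09 in control and 13.28, 13.44 and 13.47 with the combination, and Sox10 changed by 0.08 ± 0.07. Hprt1, a housekeeping gene, changed by -0.25 ± 0.07, below the fold limit. The cultures were not free of other cells. Gfap, the intermediate filament of astrocytes, read 13.21 to 13.71 in control and 12.65 to 13.33 with the combination. Of 13 astrocyte markers 7 fell and 1 rose, with a median change of -1.05, and their mean signal ran from 10.44 to 10.97 over the control arrays and from 9.52 to 10.10 over the treated ones. Aldh1l1, a folate enzyme of astrocytes, fell from 9.74, 10.51 and 10.56 to 7.71, 7.97 and 7.96 (-2.39 ± 0.18, adjusted p = 5.2e-06), while Slc1a2, their main glutamate transporter, rose by 0.98 ± 0.22, a call that was lost without replicate 2 or 3. The treated values of Aldh1l1 lay far below each control value. The part of astrocytes in the falls described below was not tested, and in RNA from whole cultures fewer cells of a type and less RNA per cell cannot be told apart.

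Markers of the remaining cell types moved less as groups. None of 15 microglial markers was called (1 fell without replicate 1), although the control array of replicate 2 stood above the others for them (mean 6.11, against 5.22 and 5.39 in the other control arrays and 5.35 to 5.61 with the combination). Of 14 vascular and fibroblast markers only Pdgfrb, the PDGF receptor of mural cells, was called, where 12.6% of all genes fell. Pdgfrb fell on 1 of its 3 probe sets (-1.44 ± 0.20). The list mean stayed between 4.56 and 4.73 on all 6 arrays. Among 15 neuronal markers 3 rose and 5 fell (8.53% and 12.6% of all genes did), or 3 fell without the pairing of replicates. Dcx, a microtubule protein of young neurons, fell by 1.38 on the log2 scale on 1 of its 2 probe sets. Eno2, a glycolytic enzyme also made by oligodendrocytes, rose from 9.36, 9.31 and 9.48 to 11.58, 11.67 and 11.47. Of 5 Schwann cell markers, Ngfr, a neurotrophin receptor, rose by 2.54 ± 0.49, with treated values of 5.10, 7.14 and 8.18 (adjusted p = 0.056 without replicate 2), and Pou3f1, a POU factor, changed by 0.97 with an adjusted p of 0.036 that rose above the limit in 7 of the alternative fits (0.205 without replicate 3). Array quality differed little: the 6 array medians ran from 6.44 to 6.51, and the 3′ less 5′ signal of beta-actin was 0.643 to 0.665 in control and 0.704 to 0.768 with the combination.

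Of 17 genes for structural proteins of myelin 10 rose, 1 fell and 6 were not called, with a median change of 1.51, against 8.53% of genes that rose and 12.6% that fell over the array. Mog, a protein of the outermost myelin membrane, read 7.05, 7.83 and 7.60 in control and 11.65, 12.49 and 12.46 with the combination, which is 26.1-fold (4.71 ± 0.11, adjusted p = 8.6e-09). The lowest treated array lay far above the highest control array. Mobp, a small basic protein of compact myelin, rose from 9.22, 10.76 and 9.93 to 12.92, 13.90 and 13.89 (12.1-fold). Pmp2, a fatty acid carrier of myelin, rose from 6.30, 6.36 and 6.03 to 11.01, 10.35 and 10.26 (19.8-fold). Mag, an adhesion protein that faces the axon, rose from a narrow range of 11.64 to 11.80 to one of 13.45 to 13.58 (1.76 ± 0.08).

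The late myelin genes Mal and Opalin showed a wide spread among treated cultures. Mal, a proteolipid that sorts myelin membrane, read 5.49, 5.83 and 6.34 in control and 7.99, 11.54 and 12.68 with the combination (4.85 ± 0.58, adjusted p = 8.9e-05). Opalin, a sialoglycoprotein particular to oligodendrocytes of the brain, read 4.86, 5.48 and 5.80 in control and 7.68, 10.62 and 11.42 with the combination (4.53 ± 0.48). In both genes replicate 1 of the combination was the lowest treated array, still above each control array. Ermn, a cytoskeletal protein of the outer myelin layers, followed the same order among treated arrays with 6.82, 9.01 and 9.59. Pmp22, better known from peripheral myelin, was the single member that fell (-0.66 ± 0.13), and none fell without replicate 2.

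Genes for the most abundant myelin proteins were read near the top of the signal scale. The main Mbp probe set, for the basic protein that compacts myelin, read 13.91, 13.94 and 13.99 in control and 14.35, 14.34 and 14.33 with the combination. It was the brightest of all probe sets on each of the 3 treated arrays and ranked 7 to 9 in control. Its change of 0.39 ± 0.07 passed the p-value limit but not the fold limit, while another Mbp probe set rose by 0.85. The third, with a mean of 8.52 in control and 9.07 with the combination, changed by 0.56 without a call. Its groups overlapped. Cnp, an enzyme of myelin cytoplasm, gave 0.31 and 0.66 on its probe sets, and Cldn11, the tight junction protein of myelin, gave 0.56 and 1.80, so that in these 3 genes the probe set of highest mean showed the smallest change.

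Genes of mature oligodendrocytes outside the myelin sheath rose as well, 20 of 28 with a median change of 1.47, and 2 fell. Ppp1r14a, an inhibitor of myosin phosphatase, read 5.82, 6.36 and 6.06 in control and 10.56, 11.63 and 11.67 with the combination, a 37.0-fold difference (5.21 ± 0.20, adjusted p = 9.8e-08). Gpr37, an orphan receptor of myelinating cells, rose by 3.91 on the log2 scale from 8.05, 8.43 and 8.55 to 11.69, 12.43 and 12.64. Car2, the carbonic anhydrase of oligodendrocytes, rose from 8.12, 7.90 and 7.95 to 11.46, 12.44 and 12.56 (4.16 ± 0.35). The control arrays of these genes lay close together, and no treated array came near them. Cdc42ep2, an effector of the Cdc42 GTPase, rose by 3.91 as well, Myo1d, an unconventional myosin, rose 12.4-fold, and Ninj2, an adhesion protein, from at most 8.63 to at least 11.11. Klk6, an oligodendrocyte protease, rose by 2.79, Ndrg1 by 2.66, Gsn, which severs actin, by 2.48 and Gjb1, the connexin of oligodendrocytes, by 2.17. The members that fell were Efnb3, an ephrin of myelin (-1.38 ± 0.14), and the tetraspanin Cd82 (-0.98 ± 0.21, with overlapping groups), and 1 gene of the list fell without the pairing of replicates. Bcas1, a marker of newly formed oligodendrocytes, changed by -0.11 and was not called.

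**Figure D2:**
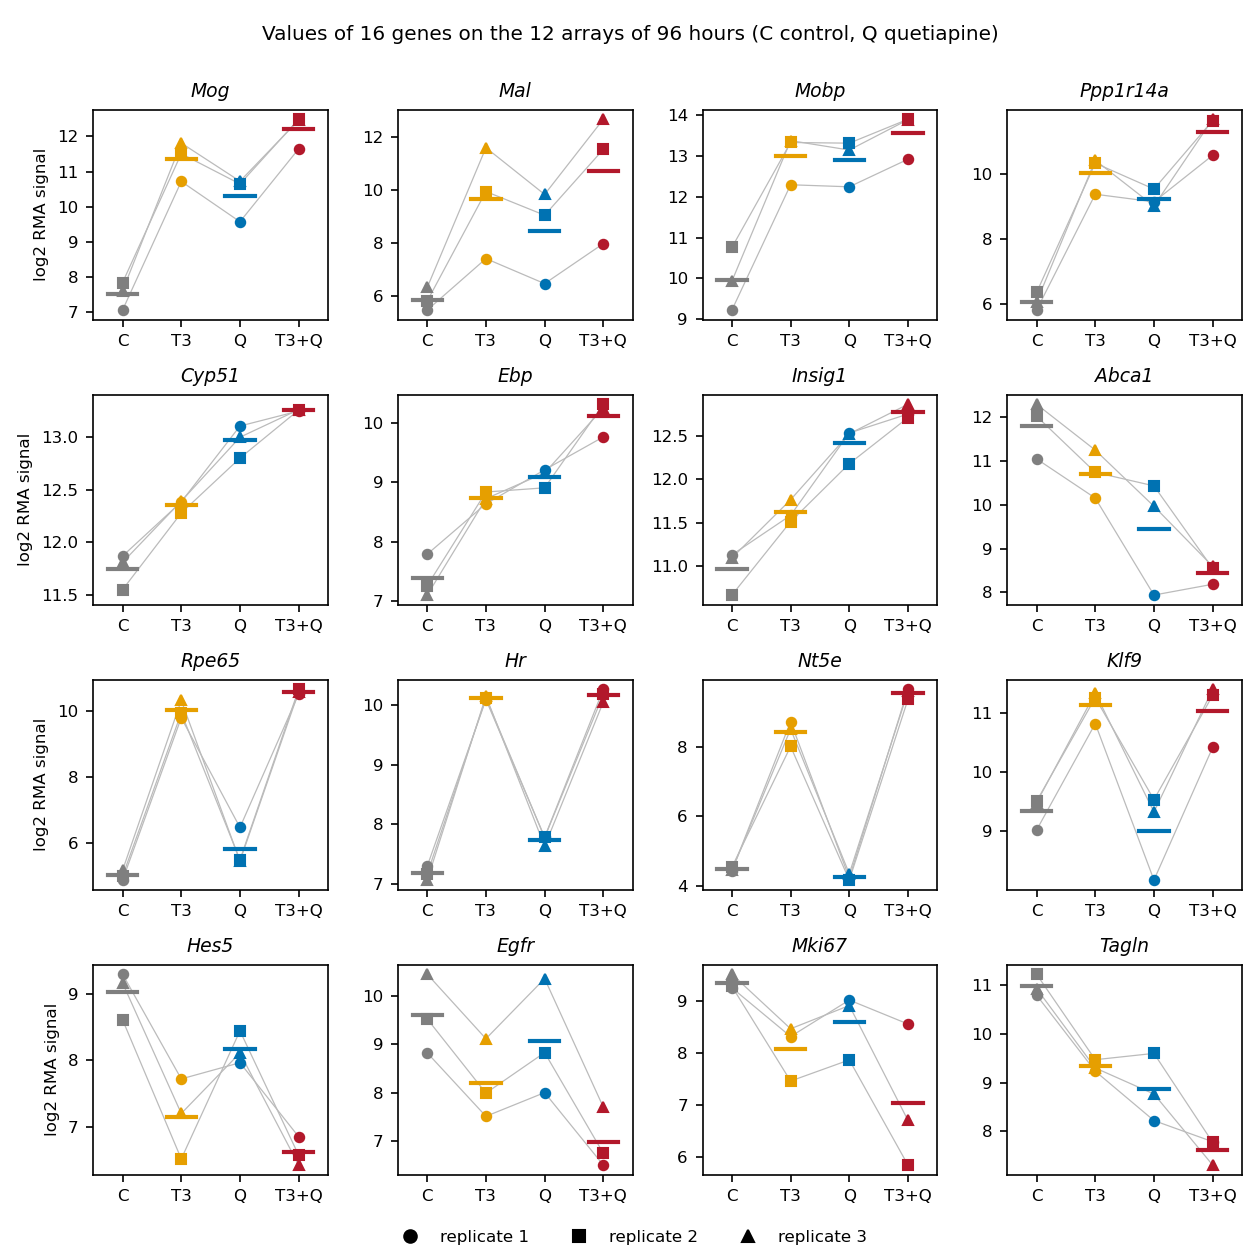
Log2 RMA signal (y axis) of 16 genes on the 12 arrays of 96 hours in control (C), T3, quetiapine (Q) and T3 plus quetiapine (T3+Q), each panel with its own scale. Symbols mark the 3 biological replicates, grey lines link arrays of a replicate and bars are group means; Mog, Mal, Mobp and Ppp1r14a are highest and Abca1, Mki67 and Tagln lowest in mean with the combination, while Rpe65, Hr, Nt5e and Klf9 are high in both groups with T3.

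Genes for the enzymes that make cholesterol rose along nearly the whole chain. In the early part, from acetyl-CoA to farnesyl diphosphate, 6 of 7 genes measured rose and none fell (median change 1.18). Pmvk, the kinase of phosphomevalonate, rose from 9.40, 8.88 and 9.10 to 10.80, 10.71 and 10.66 (1.60 ± 0.08, adjusted p = 7.2e-07), and Idi1, which isomerises isopentenyl diphosphate, rose from 12.39, 11.90 and 11.89 to 13.52, 13.32 and 13.30 (1.32 ± 0.08). The treated arrays agreed closely and lay above each control array in both genes. Ggps1, which leads away from sterols to geranylgeranyl groups, was the member not called (0.24).

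From squalene to cholesterol 11 of 12 genes rose and none fell, with a median change of 1.47. Fdft1, squalene synthase and the first step committed to sterols, rose from 10.63, 10.16 and 10.17 to 11.66, 11.67 and 11.65, and Sqle, squalene epoxidase, from 11.71, 11.30 and 11.43 to 12.61, 12.70 and 12.75. Cyp51, the lanosterol demethylase, read 11.87, 11.55 and 11.81 in control and 13.25, 13.26 and 13.26 with the combination (2.86-fold, adjusted p = 5.1e-07). Its treated arrays were alike to within 0.01. The largest changes lay late in the chain: Ebp, the sterol isomerase, read 7.79, 7.26 and 7.10 in control and 9.76, 10.31 and 10.24 with the combination (6.58-fold), Hsd17b7, a sterol ketoreductase, rose by 2.32 on the log2 scale and Tm7sf2, a sterol reductase, 4.12-fold. Lbr, a nuclear envelope protein that can also act as a sterol reductase, changed by 0.33 and was not called.

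The genes that sense and take up sterol went different ways, with 3 of 9 higher and 1 lower (8.53% and 12.6% of all genes were). Insig1, which holds SREBP back when sterol is plentiful and is itself an SREBP target, rose from 11.13, 10.67 and 11.09 to 12.75, 12.71 and 12.86 (3.51-fold). Stard4, a sterol carrier, rose 2.82-fold and Npc2, which hands cholesterol out of lysosomes, 1.69-fold. Srebf2 and Scap, the sterol-sensing SREBP and its escort, changed by 0.20 and -0.11, and neither was called. Srebf1, whose gene is also a target of LXR, read 9.31, 10.45 and 10.81 in control and 8.93, 9.01 and 9.19 with the combination (-1.15 ± 0.21), and its call was lost without the pairing of replicates (adjusted p = 0.067).

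Of 8 genes of cholesterol export and LXR response 3 fell and 1 rose (12.6% and 8.53% of all genes did). Abca1, the membrane pump that loads cholesterol onto apolipoproteins, read 11.04, 12.02 and 12.29 in control and 8.19, 8.55 and 8.60 with the combination, a fall of 10.1-fold (-3.34 ± 0.32, adjusted p = 2.4e-05). Its 4 probe sets all fell, and the steepest of them, at -3.82, was the largest fall of any probe set with a gene symbol. Apoe, the lipid carrier of the brain, fell 2.60-fold from values of 13.58 to 14.00 to values of 11.79 to 12.87, although its second probe set, at a mean signal of 3.66, changed by -0.08. Abcg1, another sterol pump, was called on 1 of its 3 probe sets. That one changed by -1.38, with an adjusted p of 0.006 that rose to 0.103 without replicate 2. Abca2, a transporter found in oligodendrocyte lysosomes, rose (0.91 ± 0.07). Apoe and Abca1 are also expressed by astrocytes. Of 13 astrocyte markers 7 fell, 1 rose and 5 were not called, and the part of astrocytes in these falls was not tested.

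Other lipid enzymes rose beside the sterol genes. Of 16 genes for fatty acid synthesis and the supply of acetyl-CoA 10 rose and none fell, with a median change of 0.96. Elovl1, which makes very long chains, rose from 10.47, 10.36 and 10.31 to 12.34, 12.52 and 12.74, and Acss2, which makes acetyl-CoA from acetate, from 10.46, 10.27 and 10.57 to 12.72, 12.55 and 12.41 (4.44-fold and 4.37-fold). Aacs, Scd and Elovl6, which activate acetoacetate, desaturate and elongate fatty acids, rose 3.13-fold, 2.77-fold and 2.76-fold. Fasn, fatty acid synthase itself, changed by 0.38 and was not called.

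In the synthesis of myelin galactolipids and sphingolipids 8 of 13 genes rose and none fell (median change 0.64). Aspa, which releases acetate from N-acetylaspartate for myelin lipids, read 8.53, 8.35 and 8.24 in control and 11.57, 11.54 and 11.63 with the combination (9.24-fold, adjusted p = 2.1e-08). Cers2, the ceramide synthase for very long chains, rose 2.82-fold, Fa2h, which hydroxylates them, 2.47-fold and Galc, which breaks galactosylceramide down, 2.35-fold. Ugt8, the galactosyltransferase that makes galactosylceramide, rose by 0.92 ± 0.09.

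**Figure D3:**
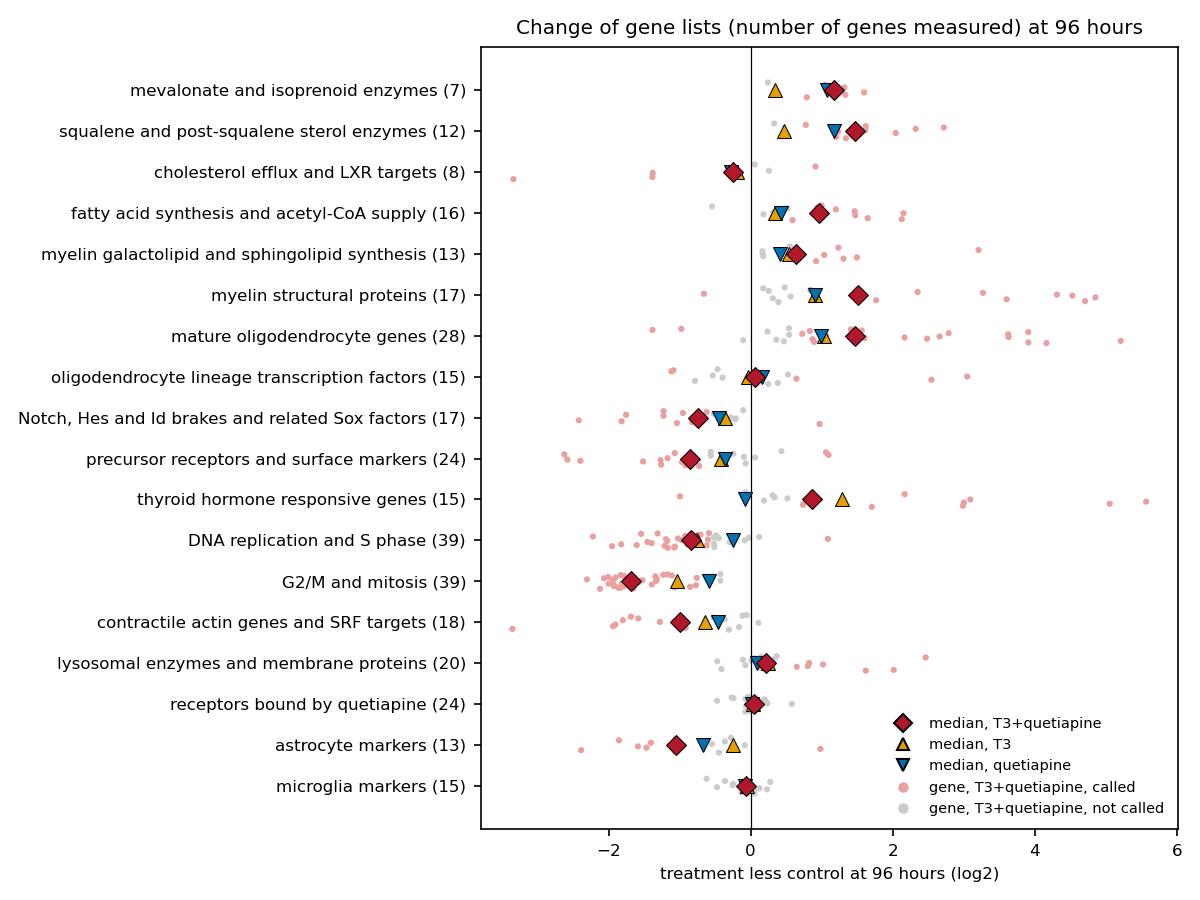
Log2 change against control at 96 hours (x axis) of 18 gene lists (rows, with the number of genes measured). Dots are single genes with T3 plus quetiapine, coloured where called, and large symbols are list medians with the combination, T3 alone and quetiapine alone, which share the control arrays; the median of G2/M genes stands at -1.69 with the combination and those of myelin proteins and late sterol enzymes at 1.51 and 1.47.

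Genes listed as thyroid hormone targets held some of the largest rises. Of 15 genes listed as responsive to T3 9 rose and 1 fell, with a median change of 0.86. The list was drawn up with earlier results of these data known, so its counts are not independent support. Rpe65, the retinoid isomerase best known from the retinal pigment epithelium, read 4.86, 4.99 and 5.16 in control and 10.50, 10.64 and 10.57 with the combination (47.4-fold, 5.57 ± 0.24, adjusted p = 2.1e-07). Nt5e, the ectonucleotidase CD73 that makes adenosine, read 4.44, 4.54 and 4.45 in control and 9.65, 9.36 and 9.58 with the combination (33.2-fold). Hr, a corepressor that binds the thyroid hormone receptor, rose from 7.30, 7.17 and 7.06 to 10.26, 10.18 and 10.05 (7.93-fold). In these genes both groups were tight and the gap between them was many times the spread. The control values of Rpe65 and Nt5e lay below the array medians of 6.44 to 6.51, and since the values used carry no background limit, their folds are those of the RMA signal and not exact ratios of RNA.

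Klf9, a zinc finger factor and direct target of the receptor, rose from 9.02, 9.51 and 9.48 to 10.42, 11.30 and 11.40 (3.26-fold). Dio3, the deiodinase that inactivates T3, rose from at most 5.71 to 7.03, 9.55 and 9.24, again lowest in replicate 1. Thrsp, a lipogenic factor, rose from 7.02, 8.62 and 9.47 to 11.03, 12.07 and 11.02, and here the control arrays carried most of the spread. Dbp, a clock output factor, rose by 0.74 ± 0.08. Nrgn, a neuronal calmodulin-binding protein, was the member that fell (-0.996 ± 0.18).

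Of 13 genes that receive and carry thyroid hormone 2 rose and 3 fell (8.53% and 12.6% of all genes did), with a median change of -0.02. Thra and Dio2, the main receptor and the activating deiodinase, changed by 0.21 and 0.02 and were not called. Slco1c1 and Slc7a5, which carry thyroid hormones and, for Slc7a5, large amino acids, fell by 1.60 and 1.57 on the log2 scale. Slc16a10, another transporter of T3, rose by 1.42 ± 0.13. Thrb, the beta receptor, read 8.80, 9.49 and 9.55 in control and 10.43, 9.93 and 10.19 with the combination (0.90 ± 0.24), which passed both limits neither without replicate 1 (0.54) nor without replicate 3 (adjusted p = 0.061).

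Of 15 lineage transcription factors 3 rose, 2 fell and 10 were not called (8.53% of all genes rose and 12.6% fell), with a median change of 0.06, and 5 rose and 4 fell without replicate 1. Zfp536, a zinc finger repressor, rose from 8.35, 8.60 and 8.46 to 11.14, 11.75 and 11.66 (8.27-fold), and Nkx6-2, a homeobox factor of myelinating cells, from 8.31, 8.64 and 8.48 to 10.77, 11.08 and 11.21 (5.83-fold). Myrf, the master regulator of myelin genes, rose from values of 11.04 to 11.29 to values of 11.76 to 11.87 (1.56-fold), close to the fold limit. Nfia and Nfib, factors linked to glial precursors and astrocytes, fell by 1.12 and 1.09 on the log2 scale.

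Factors that hold OPCs in the undifferentiated state were lower. Of 17 genes of the Notch pathway, the Hes and Id families and related Sox factors 10 fell and 1 rose (median change -0.74). Hes5, the Notch target that represses myelin genes, read 9.30, 8.61 and 9.17 in control and 6.85, 6.57 and 6.42 with the combination on its brighter probe set (5.35-fold lower), while its other probe set changed by 0.03. Hes1 fell 3.52-fold, Id4 3.37-fold, Id3 and Sox11 2.34-fold each. Jag1, a Notch ligand, was the member that rose (0.97 ± 0.16), though no member rose without the pairing, and Id2, an inhibitor of helix-loop-helix factors, changed by -0.43 without a call.

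Surface proteins and receptors of precursors fell, 14 of 24 with a median change of -0.85, and 2 rose. Pdgfra, the receptor for the PDGF in which OPCs were expanded, read 12.70, 12.33 and 12.26 in control and 12.31, 11.60 and 11.21 with the combination (-0.73 ± 0.11). The groups overlapped, since the treated array of replicate 1 exceeded the lowest control array, but each treated array lay below the control array of its own replicate. Cspg4, the NG2 proteoglycan, fell by 0.92, also with overlapping groups, and Ptprz1, a receptor phosphatase, by 0.89 on the log2 scale. Larger falls were those of Egfr, the EGF receptor (8.82, 9.53 and 10.45 in control and 6.496, 6.74 and 7.70 with the combination on its main probe set), Tnc, an extracellular matrix protein (-2.58 ± 0.22), and Vim, an intermediate filament of immature glia (-2.40 ± 0.14). Nes and Fabp7, shared by precursors and radial glia, fell by 1.51 and 1.27. Fgfr2, an FGF receptor of mature oligodendrocytes too, and Gria3, an AMPA receptor subunit, were the members that rose (1.10 and 1.06), and 1 gene of the list rose without the pairing or without replicate 2. The groups of Gria3 overlapped. Vim, Tnc, Fabp7 and Nes are expressed in astrocytes as well.

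Genes of cell division were lower. Of 39 genes of G2 phase and mitosis 36 fell and none rose (median change -1.69), and of 39 genes of DNA replication 28 fell and 1 rose (median change -0.84). Mki67, the antigen of dividing cells, read 9.24, 9.27 and 9.50 in control and 8.55, 5.85 and 6.70 with the combination (4.94-fold lower, adjusted p = 0.0011). Top2a, the topoisomerase that untangles chromosomes, read 10.43, 10.09 and 10.45 in control and 9.77, 7.15 and 8.05 with the combination. In both genes replicate 1 fell least and replicate 2 most, and no treated array reached a control value. Ccna2, a cyclin of S and G2 phase, fell 4.35-fold, Cks2, a subunit of cyclin-dependent kinases, 4.19-fold, Uhrf1, which guides DNA methylation at forks, 4.66-fold and Mcm6, part of the replicative helicase, 3.87-fold. Fen1, a flap endonuclease, went the other way (1.09 ± 0.16).

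Among 17 genes of G1 phase and its inhibitors 6 fell and 1 rose (12.6% and 8.53% of all genes did). Cdkn1a, which encodes the Cdk inhibitor p21, read 8.98, 9.14 and 9.08 in control and 10.87, 10.96 and 10.96 with the combination (3.64-fold, adjusted p = 3.1e-05). All 3 treated arrays stood within 0.1 of each other, unlike the mitotic genes. Cdkn1c, which encodes p57, fell from 12.34, 12.06 and 11.89 to 10.74, 10.47 and 10.49 (2.89-fold), and Cdkn1b, which encodes p27, changed by 0.05. Ccnd2, a D-type cyclin, fell 3.16-fold, and Ccnd1, its relative, by 0.88 on the log2 scale with overlapping groups.

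The size of these changes differed between replicates by gene group. In G2 and mitosis the median paired difference was -0.45 in replicate 1, -2.46 in replicate 2 and -2.12 in replicate 3. In DNA replication it was -0.48, -1.03 and -1.06. The late sterol enzymes (1.24, 1.70 and 1.48), T3 targets (0.98, 0.79 and 0.85) and precursor markers (-0.79, -0.79 and -0.73) moved by similar medians in each replicate. Mal and Opalin rose least in replicate 1, the replicate in which mitotic genes fell least. The median over the 17 myelin protein genes went the other way and was largest in replicate 1 (1.78, 1.52 and 1.23). That of the 28 mature oligodendrocyte genes was lowest there (1.24, 1.54 and 1.56). With 3 replicates such a relation was not tested, and the cause was not tested either.

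**Figure D4:**
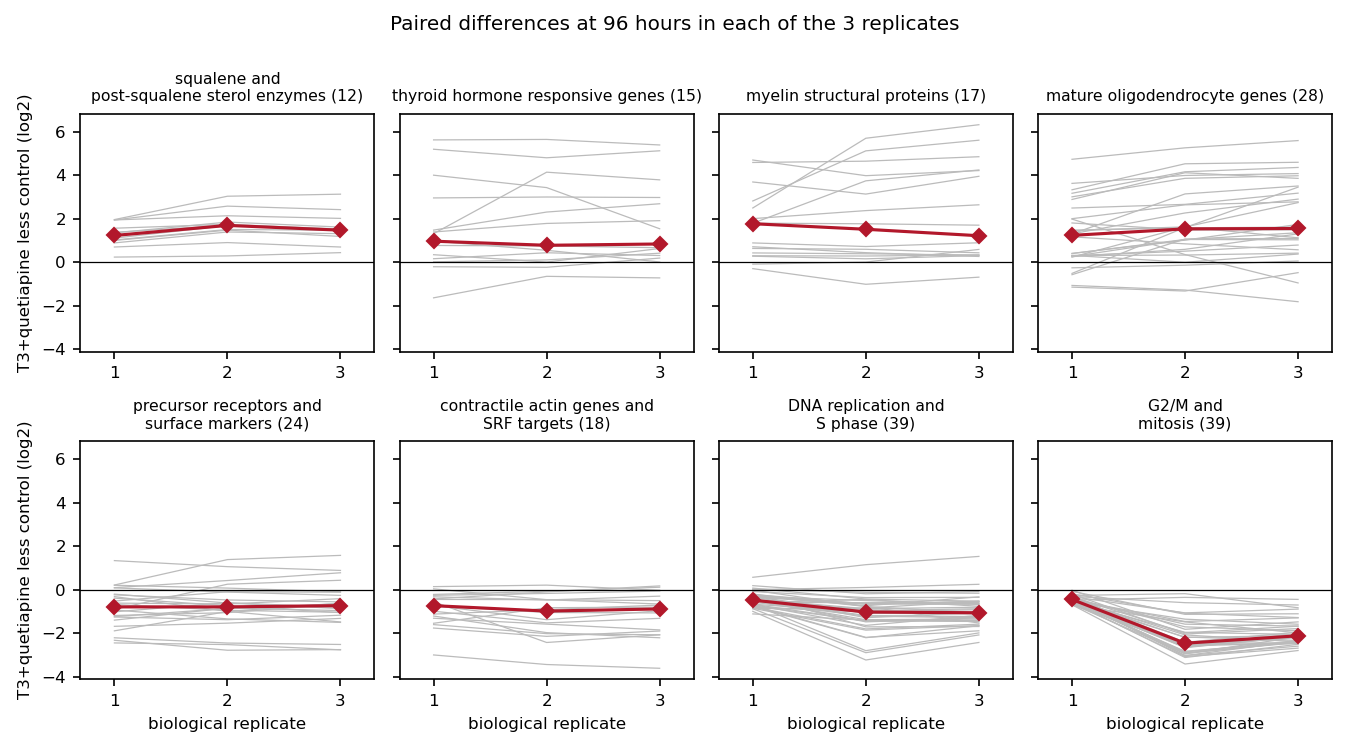
Paired difference, T3 plus quetiapine less control at 96 hours on the log2 scale (y axis), in each of the 3 biological replicates (x axis) for the members of 8 gene lists, with grey lines linking a gene and red diamonds the list median. The median of G2/M genes is -0.45 in replicate 1 against -2.46 and -2.12 in the others, while the late sterol enzymes differ less between replicates (1.24, 1.70 and 1.48).

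Receptors and secreted factors that signal to OPCs were among the strongest changes. Of 13 genes for receptors and enzymes of sphingosine-1-phosphate (S1P) and lysophosphatidate 5 rose and 4 fell (8.53% and 12.6% of all genes did). S1pr5, the S1P receptor of oligodendrocytes, read 7.69, 7.30 and 7.34 in control and 10.77, 11.22 and 11.31 with the combination (12.6-fold, adjusted p = 1.1e-06). S1pr3, an S1P receptor of astrocytes and other cells, moved the opposite way, from 9.39, 11.14 and 11.14 to 6.29, 7.16 and 7.60 (11.7-fold lower). Lpar1, the lysophosphatidate receptor of oligodendrocytes, rose from 9.66, 10.21 and 10.40 to 12.11, 12.16 and 12.15.

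In the insulin-like growth factor axis 6 of 13 genes fell and none rose (12.6% and 8.53% of all genes did). In this list 1 gene rose when arrays were centred on their medians or replicate 1 was left out. Igfbp2, a secreted binding protein, read 11.82, 11.63 and 11.58 in control and 9.13, 7.80 and 8.90 with the combination (8.37-fold lower). Igfbp5, another of these binding proteins, fell 5.93-fold on its brightest probe set, and 4 of its 5 probe sets fell. Igf1r, the receptor through which insulin in the medium can also act, fell 1.97-fold on 1 of its 2 probe sets. Irs2, its adaptor, fell by 1.20 on the log2 scale, or by 0.78 without replicate 1. Igf1 and Insr, the growth factor and the insulin receptor, changed by 0.12 and 0.07.

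Genes of BMP and Wnt signalling, pathways that can hold back myelination, fell in 10 of 22 cases and rose in 2. Over all genes 12.6% fell and 8.53% rose. Without replicate 1 the rises in this list were 4. Sfrp1, a secreted Wnt binder, fell 3.55-fold and Lgr5, a receptor that enhances Wnt signals, 2.62-fold. Bmp2, a BMP ligand, fell 2.24-fold on 1 of its 2 probe sets. Smad7, an inhibitor of the pathway, rose by 1.10 ± 0.14, and the Wnt feedback genes Axin2 and Lef1 changed by -0.49 and -0.08 without a call. Among 19 ERK feedback and immediate early genes 5 fell and 3 rose (12.6% and 8.53% of all genes did). The falls were 3 without the pairing or without replicate 2, and 2 without the control array of replicate 1. Etv5, an ETS factor induced by growth factors, fell 3.17-fold on 1 of its 2 probe sets. Fos, an immediate early factor, rose from 7.41, 8.87 and 8.78 to 10.58, 10.90 and 10.72 on its main probe set.

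Inflammatory and adhesion genes were lower in 8 of 21 cases and higher in 1 (12.6% and 8.53% of all genes were). There were 4 falls when replicates were not paired and 5 without replicate 2. Vcam1, an adhesion molecule, read 10.36, 11.17 and 11.42 in control and 7.93, 8.20 and 8.10 with the combination (7.51-fold lower), and Il33, an alarmin of oligodendrocytes and astrocytes, fell 6.93-fold. Tnfaip3, which restrains NF-kappa B, rose 2.96-fold. Of 18 contractile actin genes 11 fell and none rose (median change -0.99). Tagln, an actin-binding protein of contractile cells, read 10.79, 11.22 and 10.92 in control and 7.79, 7.77 and 7.31 with the combination (10.2-fold lower, adjusted p = 1.9e-06). Cnn2, Myl9 and Actn1, which bind or drive actin, fell 3.83-fold, 3.74-fold and 3.48-fold, and Acta2, smooth muscle actin, changed by -0.31 without a call.

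Matrix genes showed no common direction. Of 27 genes for collagens, laminins, fibronectin and integrins 3 rose and 6 fell (8.53% and 12.6% of all genes did). Their median change was -0.13. Sparc, a matrix protein of glia, fell 3.78-fold and Itga6, a laminin receptor subunit of oligodendrocytes, rose 2.39-fold, with 2 of its 4 probe sets called. Lamb1, a laminin chain, rose from 4.29, 3.57 and 4.03 to 6.63, 4.46 and 5.15.

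Lysosomal genes rose in 7 of 20 cases with no falls, with a median change of 0.22 over the list. Scarb2, a lysosomal membrane protein, rose from 9.60, 9.90 and 9.72 to 11.84, 12.45 and 12.33 (5.52-fold), Ctsl, a protease, 4.04-fold and Lipa, which frees cholesterol from its esters, 3.07-fold. Of 20 genes of the unfolded protein and integrated stress responses 4 rose and 2 fell (8.53% and 12.6% of all genes did). Without the pairing 1 rose. Hspa5, the main chaperone of that response, changed by -0.08. In glycolysis and lactate handling 2 of 21 genes rose and 4 fell (8.53% and 12.6% of all genes did). Slc16a1, the lactate transporter of oligodendrocytes, rose 3.20-fold on 1 of its 2 probe sets, and Hk1, hexokinase, fell 2.22-fold on its main probe set. None of 24 genes for receptors to which quetiapine binds was called, though 1 passed when arrays were centred on their medians or replicate 1 was left out. Their mean signal was 5.21 to 5.39 on the 6 arrays, below the array medians of 6.44 to 6.51. At such low signals a missing call does not show that these receptors were unchanged. Adra1b, an adrenergic receptor, came nearest with 0.58 ± 0.12. Hrh1, the histamine receptor, followed with -0.47 ± 0.08, while its 3 probe sets ranged from -0.47 to 0.01.

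Of the remaining genes with the largest changes, Tmtc1, an enzyme of the endoplasmic reticulum, rose 15.9-fold, Nherf2, a scaffold for membrane proteins, 15.1-fold, Slc12a7, a potassium chloride cotransporter, 14.9-fold, Slc24a2, a sodium calcium exchanger, 14.7-fold and Man1a1, a mannosidase of the Golgi, 14.5-fold. The other probe set of Slc12a7 changed by 0.24 and was not called. The falls included Cpxm1, a carboxypeptidase-like protein, from 7.86, 8.57 and 8.71 to 4.75, 4.68 and 4.94 (-3.59 on the log2 scale). Igdcc4 and Lxn fell 7.68-fold and 6.74-fold, the former on the brighter of its probe sets. Cavin3, a caveolar protein, Fmo1, a monooxygenase, Sncaip, a partner of synuclein, and Nbl1, a BMP antagonist, fell by 2.68 to 2.74 on the log2 scale. The locus LOC100910973 fell 8.15-fold.

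The combination was next set against each agent given alone, which asks what the second agent added. Against T3 alone 497 probe sets were higher (1.6%) and 886 lower (2.85%). Against quetiapine alone 1003 were higher (3.23%) and 1043 lower (3.36%). These counts rest on the pairing of replicates. Without it they were 222 and 130 against T3 and 630 and 543 against quetiapine, and without replicate 2 of the combination 287 were higher than with T3. Changes of each treatment against control are given side by side, but they share their control arrays.

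Sterol genes moved with quetiapine. With quetiapine alone 11 of the 12 late sterol enzymes rose (median change 1.18) and with T3 alone 5 (median change 0.47), where 3.55% and 5.41% of genes rose in these comparisons. Adding quetiapine to T3 raised 11 of the 12 (1.77% of all genes were higher in that contrast), and adding T3 to quetiapine raised 2 (3.85% of all genes). Cyp51 rose by 0.91 ± 0.08 when quetiapine was added to T3, and by 0.29 when T3 was added to quetiapine, which was not called. Ebp responded to both additions, with 1.37 over T3 and 1.01 over quetiapine. Abca1 fell with each agent alone on its brightest probe set (-1.07 with T3 and -2.34 with quetiapine). With T3 the steepest probe set fell too (-1.21), and the remaining ones were not called (-0.582 and -0.583, adjusted p = 0.067 and 0.13). The combination was -2.27 ± 0.32 against T3 on the brightest probe set. Against quetiapine that probe set was not called (adjusted p = 0.055) and the steepest was (-1.18, adjusted p = 0.022). The remaining ones were not called against quetiapine (-0.40 and -0.39, adjusted p = 0.23 and 0.34).

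Genes of the list of T3 targets, drawn up with earlier results of these data known, moved with T3. With T3 alone 10 of the 15 rose and with quetiapine alone 1. Hr changed by 2.94 under T3, 0.55 under quetiapine and 2.99 under both, and the combination exceeded quetiapine by 2.43 ± 0.07 and T3 by 0.04. Rpe65, Crym, a cytosolic T3-binding protein, and Slc12a7 exceeded quetiapine alone by 4.78, 4.00 and 3.74. Nt5e was an exception in that adding quetiapine to T3 raised it by a further 1.12 ± 0.13. Dbp was 0.51 lower with the combination than with T3 alone, below the fold limit.

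Myelin and maturation genes moved with each agent. The median change of the 17 myelin genes was 0.91 for T3, 0.91 for quetiapine and 1.51 for the combination, and 10 rose in each of the 3 comparisons with control. Mog read 10.72, 11.51 and 11.81 with T3 and 9.57, 10.65 and 10.72 with quetiapine, and the combination exceeded T3 by 0.85 ± 0.11 and quetiapine by 1.89 ± 0.11. The median change of the 39 genes of G2 and mitosis was -1.04 for T3, -0.58 for quetiapine and -1.69 for the combination. Of these 39 genes 29 fell with T3 (5.84% of all genes) and none with quetiapine (4.94%), and 27 were lower with the combination than with quetiapine (4.55%). None was lower than with T3 (3.92%). A p-value that misses the limit does not show that those groups were alike.

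Some genes were higher with the combination than with either agent. Cyp26b1, which breaks down retinoic acid, read 4.64, 4.73 and 4.72 in control, 6.60, 5.49 and 5.15 with T3, 4.46, 4.28 and 4.77 with quetiapine and 9.21, 7.82 and 7.69 with the combination. It exceeded T3 alone by 2.49 ± 0.33, with an adjusted p of 0.062 in that contrast without replicate 2. Its other probe set changed by 0.50 with the combination against control, without a call. Grm3, a glutamate receptor, exceeded T3 by 2.41 ± 0.52 and quetiapine by 3.65, and Tppp3, a tubulin-binding protein, by 2.26 ± 0.35 and 1.87. Over T3 the call of Grm3 was lost in 7 of the alternative fits (adjusted p = 0.067 to 0.223) and that of Tppp3 without the pairing (0.122) or replicate 2 (0.124). P2rx2, an ATP-gated channel, changed by 0.10 under T3, 0.12 under quetiapine and 2.09 under both, and its call over T3 was lost without replicate 2 (adjusted p = 0.094). Vim, an intermediate filament, was lower by 1.56 ± 0.14 than with T3 and by 1.48 than with quetiapine. Ccl2, a chemokine, was 2.23 lower than with T3 alone, where 1 array or the pairing decided the call (adjusted p = 0.054 to 0.12 in the fits that lost it).

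The interaction asks whether the combination differed from the sum of both single changes on the log2 scale. It was called higher in 9 probe sets (0.029%, or 0.0563% of genes) and lower in 66 (0.213%), and in 1 and 9 without the pairing. Leaving out replicate 3 of T3 brought these to 2 and 28, and leaving out replicate 1 of control to 26 and 93. Among myelin proteins 16 of 17 genes had a negative interaction and 4 were called (0.309% of all genes were), with a median of -0.50. Over all genes the median interaction was 0.02. Since all genes were read on the same arrays, the signs of list members are not independent of each other. Some of the myelin genes read near the top of the signal scale. Mag read 13.45 to 13.58 with the combination, where array maxima were 14.33 to 14.35. The part of this limit in the negative values was not tested. Mature oligodendrocyte genes had 5 of 28 called lower and a median of -0.61. The clearest were Gpr37 (-2.41 ± 0.15, adjusted p = 2.3e-04), with 3.22 for T3, 3.10 for quetiapine and 3.91 for both, and Mobp (-2.36 ± 0.20), with 3.03, 2.93 and 3.60. Both calls were lost without the pairing, Gpr37 at an adjusted p of 0.13 and Mobp at 0.75, and without replicate 3 (0.059 and 0.067). Mag, with an interaction of -1.11 ± 0.11 (adjusted p = 0.0041), had an adjusted p of 0.010 without the pairing. The late sterol enzymes had 11 of 12 negative values with a median of -0.14 and none called. On the positive side stood Cib2, a calcium-binding protein, with 1.77 ± 0.21, at -0.38 with T3, -0.41 with quetiapine and 0.99 with both, whose call was lost in 4 of the alternative fits (adjusted p = 0.16 without the pairing). Nt5e, Epas1, a hypoxia factor, and Plin2, a lipid droplet protein, had interactions of 1.35, 1.25 and 1.23, which lost their calls in 9 or 10 of the alternative fits each.

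Finally, 48 and 96 hours were compared on separate arrays of the same replicates. At 48 hours the combination raised 689 probe sets (2.22%) and lowered 875 (2.82%) against control, or 405 and 396 without the pairing and 1203 lower without the 48-hour control array of replicate 1. Of the rises at 96 hours 20.9% were called at 48 hours, and 71.1% of those at 48 hours were called again at 96 hours. For the falls these shares were 25.2% and 85.5%. Opposite calls were rare, with 17 probe sets lower at 48 and higher at 96 hours and 6 the other way.

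The difference between the times was itself tested over all 24 arrays. It was higher at 96 hours for 1405 probe sets (4.53%) and lower for 1347 (4.34%), or 935 and 394 without the pairing, and 200 and 59 without replicate 2. Genes of T3 response and sterol synthesis were already changed at 48 hours. Of the T3 targets 9 had risen by then (2.76% of all genes) and between the times 1, Rpe65, had a called increase (5.21%) and 1, Dbp, a called decrease (5.73%). Hr changed by 2.69 and 2.99 at 48 and 96 hours and Nt5e by 4.63 and 5.05, with neither difference called. Of the late sterol enzymes 11 of 12 had risen by 48 hours, with a median change of 0.92 against 1.47 at 96 hours, and 5 had a called increase.

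Maturation genes changed mainly in the later period. Of the mature oligodendrocyte genes 5 of 28 had risen and 4 fallen at 48 hours (4% of genes fell), with a median of 0.17. Between the times 16 had a called increase and 1 a called decrease (5.73% of genes had). Mal read 5.58, 5.21 and 5.09 in control at 48 hours and 5.74, 5.37 and 5.35 with the combination, higher in each replicate but not called (0.19 ± 0.12, adjusted p = 0.28). The effect at 96 hours was larger by 4.66 ± 1.15, a call that was lost without the pairing (adjusted p = 0.051), replicate 2 (0.26) or replicate 3 (0.067). Car2 was 7.19, 7.30 and 7.38 in control at 48 hours and 6.98, 6.75 and 7.38 with the combination. Mobp behaved otherwise: at 48 hours it read 5.001, 4.12 and 4.93 in control and 6.94, 6.94 and 9.62 with the combination, a change of 3.15, and at 96 hours the control itself stood between 9.22 and 10.76. Its change against control differed by 0.45 between the times, without a call. Anxa2, a calcium-binding membrane protein, was lower with the combination at 48 hours (-0.82) and higher at 96 hours, where it rose from 7.59, 9.48 and 9.17 to 11.60, 12.34 and 12.23. Its other probe set changed by 0.12 at 96 hours, without a call.

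**Figure D5:**
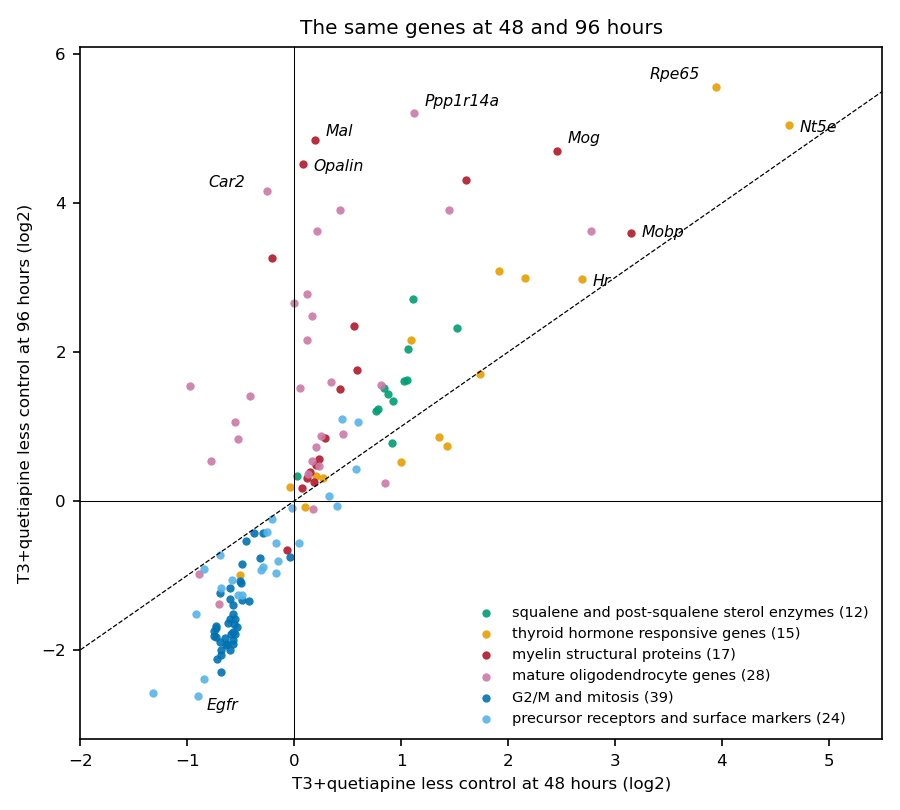
Log2 change with T3 plus quetiapine against control at 48 hours (x axis) and at 96 hours (y axis) for the members of 6 gene lists, with equal change on the dashed line. Nt5e and Hr lie near the line, while Mal, Opalin and Car2 lie near 0 at 48 hours and above 4 at 96 hours.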

How the data were processed

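Rat OPC cultures of 8 conditions, with 3 biological replicates of each, were measured on 24 single-colour Affymetrix arrays. The authors made log2 values with RMA, which corrects background, sets all arrays to a common distribution and summarises probes, in a version that was not stated, and these values were used unchanged. RMA's shared distribution means that a general shift of signal between groups would not be seen. Of 31099 probe sets 57 array controls were left out; GEO's annotation gave 20826 of the rest 1 symbol, 436 several and 9780 none. Listed genes with no symbol in it are not reported here. A gene was read by its probe set of highest mean over 24 arrays.

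Group means were fitted to the 12 arrays of 96 hours with limma 3.58.1 in R 4.3.3 (lmFit, contrasts, eBayes), with replicate number as a fixed block, and p-values were adjusted by Benjamini-Hochberg over 31042 probe sets. A call needed an adjusted p below 0.05 and a fold above 1.5. The block rests on the deposited design, in which each biological replicate gave every condition, and on the replicate numbers in the labels. As a check, the deviations from group means of the 18 same-numbered pairs of arrays correlated at 0.309 to 0.690 and those of 36 other pairs at -0.583 to 0.243. Deviations cancel within a group, so positive values in same-numbered pairs bring negative ones among the other pairs. The low values of the other pairs are therefore no separate support for the pairing. The 48-hour arrays were fitted alike, and the difference between times over all 24. The number of arrays limits the precision. The script was tested on simulated data.

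Genes are named by rule: the 15 largest called changes each way whose groups did not overlap, the 5 largest each way in the other contrasts, up to 5 called members of each list (or 2 where none was called) and genes the study's text names. Further list members were named after their values were seen. Members, lists and rules were chosen with earlier results of these data known. Alternatives were no block, a random block, the 6 arrays alone, arrays centred on their median, a mean of at least 5, an intensity trend, the p-value limit alone, every probe set of a list and leaving out each array or replicate.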

Additional observations from a re-analysis of the deposited data

Results flagged for a closer look

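The difference between the effect of T3 plus quetiapine at 96 hours and that at 48 hours was tested in 1 model over all 24 arrays, and 1405 probe sets had a higher and 1347 a lower effect at 96 hours. The 5 named genes with the largest positive differences were Mal (4.66), the second Car2 probe set (4.53), Opalin (4.45), Grm3 (4.403) and Anxa2 (4.13), each on the log2 scale. Those with the largest negative differences were Abca1 (-2.47 on its steepest probe set), Igfbp5 (-2.44), Ogn, a matrix proteoglycan (-2.36), Adgra1, an adhesion receptor (-2.05), and Tagln (-1.997). Without replicate 2 the adjusted p rose above 0.05 for Mal (0.26), Opalin (0.22), Grm3 (0.071), Abca1 (0.058), Igfbp5 (0.057), Ogn (0.11), Adgra1 (0.086) and Tagln (0.080). The calls of Car2 and Anxa2 held without it. Without the pairing Mal (0.051) and Ogn (0.056) were not called, nor was Mal without replicate 3 (0.067).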

How the results depend on the processing

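Against control at 96 hours the counts stayed within 1.5 times of 2339 higher and 2970 lower under every alternative but the p-value limit alone, which gave 5738 and 6857; leaving out 1 array or 1 replicate gave 2115 to 2642 and 2776 to 3216. The p-value limit alone gave 1690 and 2041 against T3, 2654 and 3441 against quetiapine, 2989 and 3759 at 48 hours and 2504 and 2936 for the difference between times. Without the replicate block the paired counts became 222 and 130 against T3, 630 and 543 against quetiapine, 1 and 9 for the interaction, 405 and 396 at 48 hours and 935 and 394 for the difference between times, and an intensity trend gave 14 higher interactions. Leaving out arrays or replicates gave 129 to 823 higher and 295 to 1296 lower against T3, 468 to 1316 and 403 to 1524 against quetiapine, 0 to 26 and 0 to 97 for the interaction, 525 to 832 and 487 to 1253 at 48 hours and 200 to 1693 and 59 to 1871 for the difference between times. The cause was not tested. Of 186 named probe sets 176 were called against control, 155 of these under each alternative run, and none reversed.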
